A study of Mus musculus with 4 samples.

Results

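The 6 genes described here are Tg, Tshr, Slc5a5, Nkx2-1, Pth and Calca, which mark the endocrine cells of the thyroid and parathyroid glands, and their expression was followed in mouse mTEChi with and without Aire. They were taken by gene symbol from the deposited count tables, where they hold 8 of 30794 RefSeq IDs and 6 of 23003 gene symbols. RNA-seq was performed on 4 libraries of mTEChi, which are epithelial cells of the thymic medulla rich in MHC class II, taken from C57BL/6 mice aged 4 weeks. The WT group (2 libraries) came from wild-type mice and the Aire-KO group (2 libraries, genotype Aire-/-) from Aire-deficient mice of the same background, a line in which the mutation is not restricted to thymic epithelium. Both genotypes were sequenced once in a first experiment and once more in a replicate experiment. Each library pooled 4 mice, so that spread between single animals was not measured, and the sort took cells without CD45 and Ly51 that had high I-A/E. The comparison of genotypes addresses which of these gland genes depend on Aire in mTEChi.

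Aire is a transcriptional regulator that lets mTEChi express genes otherwise restricted to peripheral tissues, so that developing thymocytes reactive to those products can be removed or diverted. The thyroid follicle takes up iodide through the sodium-iodide symporter (Slc5a5), builds thyroid hormone on thyroglobulin (Tg), and is driven by thyrotropin through its receptor (Tshr), while Nkx2-1 is a homeodomain transcription factor needed to form the thyroid and the lung. Parathyroid chief cells secrete parathyroid hormone (Pth), which raises blood calcium, and thyroid C cells secrete calcitonin, which opposes it and is made from Calca, a gene that also encodes the neuropeptide CGRP through alternative RNA processing. Thyroglobulin and the thyrotropin receptor are known targets of autoantibodies in thyroid autoimmunity.

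Counts summed over all RefSeq IDs lay between 111077552 and 242862323 per library, so that 1 read of a gene corresponded to 0.00435 to 0.00839 CPM (counts relative to the TMM-scaled library size). All 12 mTEC markers were detected in every library, with edgeR adjusted p (described below) from 0.262 to 0.937 and a summed level of 12400 to 19000 CPM in WT and 20400 to 24600 in Aire-KO. Of the 12, 6 were higher in both Aire-KO libraries than in both WT libraries, 2 were higher in both WT libraries, and 0 were called. Markers of other cell types were also detected, some at levels that differed between genotypes. For the counts of separating markers in this paragraph, the share of all genes that separate likewise is not given, so these counts have no background here. For the calls, the background was 6.22% of all genes called higher in WT and 0.253% called lower. Dendritic cell and macrophage markers summed to 302 to 548 CPM in WT and 349 to 362 in Aire-KO, and 8 of 10 were higher in both WT libraries than in both Aire-KO libraries, of which Itgam, Cd209a and Adgre1 were called. Fibroblast markers summed to 109 to 135 CPM in WT and 277 to 316 in Aire-KO, with 6 of 8 higher in both Aire-KO libraries, of which Col1a2, Col3a1 and Dpt were called. Thymocyte markers summed to 37.5 to 61.7 CPM in WT and 31.6 to 40.8 in Aire-KO. Of these, 9 of 12 were higher in both WT libraries and 1 of 12, Cd4, in both Aire-KO libraries. Endothelial markers summed to 21.4 to 38.6 CPM in WT and 28.5 to 63.9 in Aire-KO. Markers of cortical epithelium summed to 321 to 362 CPM in WT and 422 to 644 in Aire-KO, of which 2 of 7 were higher in both WT libraries and 1 of 7 in both Aire-KO libraries, and Enpep was called, higher in WT. Whether their reads came from other cells or from mTEChi, and their part in the results below, was not tested. In bulk RNA, fewer cells that express a gene and less RNA per cell cannot be told apart. The targeted gene itself does not check the labels, because the deposited count of Aire covers its whole RefSeq ID and does not separate the deleted part, and it was 398 and 307 CPM in WT against 1380 and 765 CPM in Aire-KO.

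The levels of the 6 genes ran from 92.6 down to 0 on the RPKM scale (CPM per kb of annotated length, the RefSeq ID with the most reads for each gene). In WT, Calca was highest at 57.1 RPKM in the first and 92.6 RPKM in the replicate experiment, above 96.2% and 96.7% of 18676 genes. Pth followed at 8.46 and 8.95 RPKM, and Slc5a5 lay at 1.30 and 1.68 RPKM. Tg could not be placed in this order, since its WT libraries were at 0.963 and 14.8 RPKM, below Slc5a5 in one and above Pth in the other. Tshr (0.345 and 0.161 RPKM) and Nkx2-1 (0.307 and 0.332 RPKM) were lowest and exchanged places between the WT libraries. In Aire-KO, the order was Calca (76.5 and 49.3 RPKM), Slc5a5 (3.16 and 2.93), Tg (1.51 and 1.22), Tshr (0.105 and 0.0504), Nkx2-1 (0.0267 and 0.0108) and Pth (0.0096 and 0), and no neighbours in this order overlapped, although the 3 lowest rested on at most 66 reads a library.

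**Figure D1:**
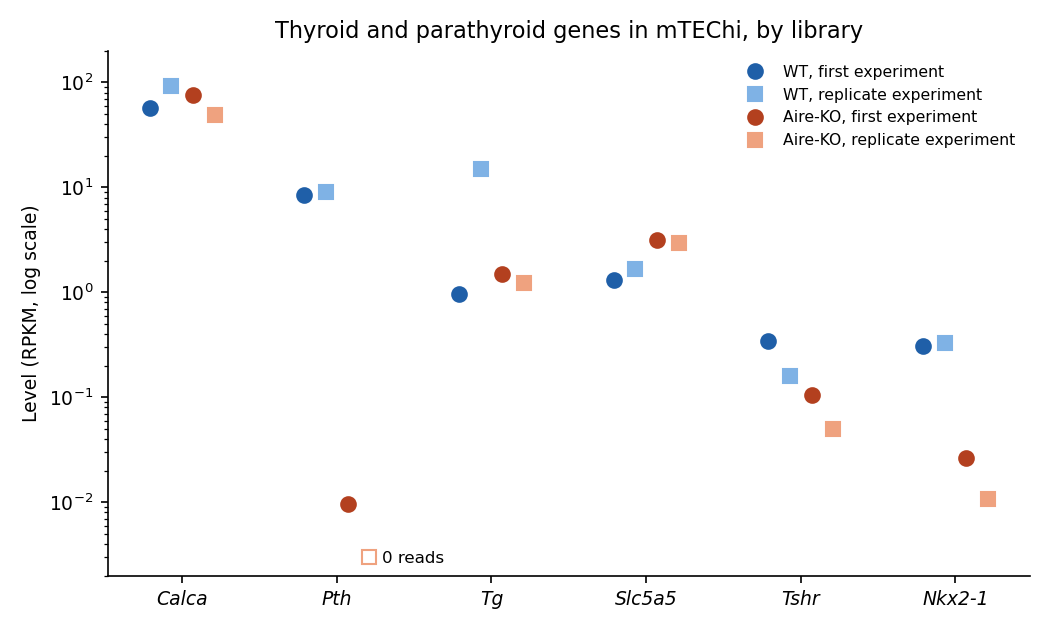
Level of each gene in RPKM (log axis) in the 4 libraries, with 1 point per library, circles for the first and squares for the replicate experiment, and an open square for a library with 0 reads. Pth, Nkx2-1 and Tshr are higher in both WT libraries than in both Aire-KO libraries, and Slc5a5 is lower. The share of all genes that separate likewise is not given. Calca stays between 49.3 and 92.6 RPKM, and the WT library of the replicate experiment stands apart for Tg at 14.8 RPKM.

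Across all genes, genotypes were compared with edgeR's quasi-likelihood test with Benjamini-Hochberg adjustment over all RefSeq IDs, and a gene was called at an adjusted p under 0.05. Of the 6 genes, all of which passed the filter on low counts, 2 (Pth and Nkx2-1) were called higher in WT, beside a background of 6.22% of 19772 genes tested, and 0 of 6 were called lower in WT, beside 0.253%. Slc5a5 (unadjusted p = 0.0404 in the edgeR fit) was the other member under 0.05 before adjustment. When the experiment was added as a block, 2 of 6 were called higher and 1 of 6, Slc5a5, lower, beside 17.5% and 9.51% of genes. Expressed as WT over Aire-KO, the 6 genes had a median log2 fold change of 2.12, while that of all genes tested was 0.00.

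**Figure D2:**
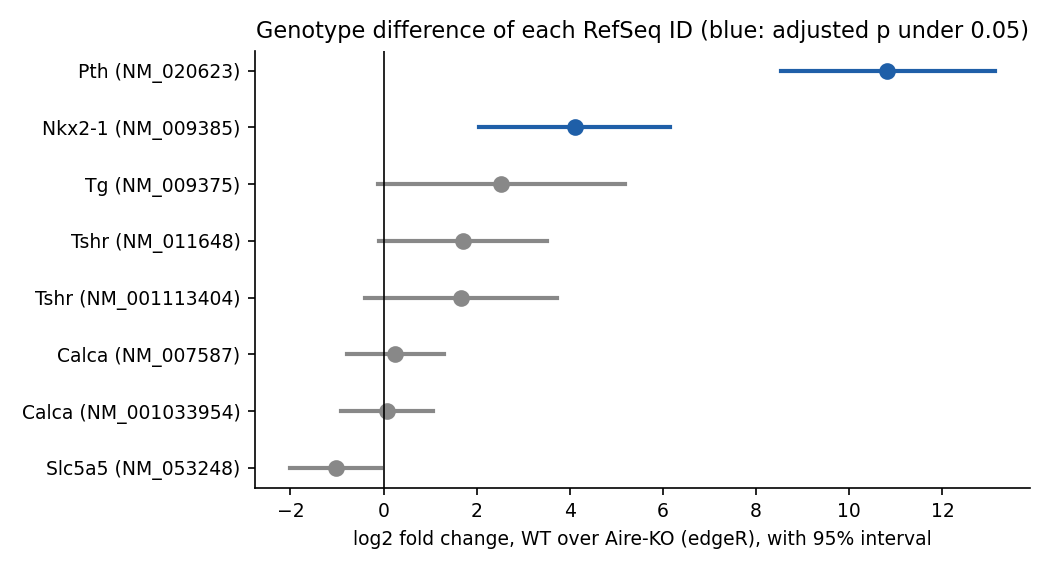
Log2 fold change of WT over Aire-KO for each of the 8 RefSeq IDs (horizontal axis), with the 95% interval of the edgeR fit over 4 libraries and blue where the adjusted p was under 0.05. Pth (10.82) and Nkx2-1 (4.11) lie to the right of 0, and the intervals of Tg, both Tshr IDs and both Calca IDs include 0.

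Parathyroid hormone was lost almost entirely without Aire. Pth (RefSeq ID NM_020623, 717 bp annotated) is a minus-strand gene of chromosome 7 (mm9, 120529090 to 120532087) with 3 exons. It had 1328 and 765 reads in the WT libraries, against 1 read and 0 reads in the Aire-KO libraries, which were the deeper pair in sum. Both WT libraries were thus far above both Aire-KO libraries, and they lay close together, at 6.07 and 6.42 CPM (mean 6.24 ± 0.25, SD, n = 2). Summed over libraries, 2093 reads stood against 1, a ratio of 2323 with an exact 95% interval of counting error from 416 to 91777. The fitted log2 fold change was 10.82 ± 0.95 (SE, edgeR adjusted p = 0.0176) and depends on the prior count that edgeR adds. The reads covered each annotated part of the transcript. In the WT libraries the 5'UTR had 6.57 and 10.2 RPKM, the coding exon before the last 6.16 and 8.39, and the last exon 9.18 and 8.67, so that the transcript was covered at a similar density from end to end. The single Aire-KO read fell in the coding exon before the last. The nearest gene at lower coordinates, Btbd10, 16183 bp away, had 5496 and 2680 reads in WT and 4194 and 5215 in Aire-KO (log2 fold change -0.12 ± 0.35, SE, edgeR adjusted p = 0.92), and was not called.

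The gene that specifies the parathyroid, Gcm2, showed the pattern of Pth. Gcm2, a transcription factor required for parathyroid formation, had 347 and 237 reads in WT and 3 and 0 in Aire-KO, a ratio of 216 with an exact 95% counting interval from 73.6 to 1050 (edgeR adjusted p = 0.0285). Casr, the calcium-sensing receptor through which chief cells adjust Pth secretion, did not follow: it stood at 20.6 and 27.6 CPM in WT and at 43.5 and 29.1 CPM in Aire-KO, with both Aire-KO libraries above both WT libraries and a log2 fold change of -0.59 ± 0.39 (SE, edgeR adjusted p = 0.495). Of the list for parathyroid determination and calcium sensing, 1 of 10 genes tested (Gcm2) was called higher in WT and 0 lower. This stood beside 6.22% and 0.253% of all genes, and the list's median log2 fold change was -0.10. With the experiment as a block, 2 of 10 were called higher and 1 lower, beside 17.5% and 9.51% of all genes. The lower one was Pax9, at 67.4 and 34.1 CPM in WT and 89.8 and 58.1 in Aire-KO. Its block log2 fold change was -0.59 (edgeR adjusted p = 0.0485). Of the 6 chief cell markers, Pth and Gcm2 were at 1 to 3 reads in all in Aire-KO, whereas Casr, Chga and Gata3 were between 6.71 and 43.5 CPM there.

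Among genes through which parathyroid hormone and vitamin D control calcium and phosphate, 4 of 12 tested were called higher in WT and 0 lower. This stood beside 6.22% and 0.253% of all genes, and the list's median log2 fold change was 2.52. With the experiment as a block, 6 of 12 were called higher and 1 lower, beside 17.5% and 9.51% of all genes. The lower one was S100g, at 47.8 and 107 CPM in WT and 127 and 138 in Aire-KO. Its block log2 fold change was -0.88 (edgeR adjusted p = 0.022). Cyp24a1, which inactivates vitamin D, had 663 and 375 reads in WT and 32 and 24 in Aire-KO (log2 fold change 4.26 ± 0.66, SE, edgeR adjusted p = 0.0265). Fgf23, the bone hormone that lowers phosphate, had 906 and 356 reads against 45 and 38 (3.91 ± 0.63, SE, edgeR adjusted p = 0.0279). The epithelial calcium channels were both called. Trpv5 had 96 and 45 reads in WT against 1 and 0, a ratio of 156 with an exact counting interval from 27.6 to 6223 (edgeR adjusted p = 0.0417), and Trpv6 had 352 and 169 against 31 and 25 (log2 fold change 3.24 ± 0.69, SE, edgeR adjusted p = 0.0494). Both calls were lost when either WT library was left out, with edgeR adjusted p from 0.0654 to 0.0817 for Trpv5 and from 0.0709 to 0.11 for Trpv6.

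Nkx2-1 was called with few reads behind it. Nkx2-1 (NM_009385, 2830 bp) is a minus-strand gene of chromosome 12 (mm9, 57632922 to 57637895) with 3 exons. It had 190 and 112 reads in WT and 11 and 7 in Aire-KO, or 0.868 and 0.940 CPM against 0.0757 and 0.0304 CPM. The WT libraries lay close together and did not overlap with Aire-KO, which kept 5.87% of the WT mean. The log2 fold change was 4.11 ± 0.85 (SE, 95% interval 2.05 to 6.16, edgeR adjusted p = 0.0462), close to the threshold, and without the WT library of the first experiment or that of the replicate experiment the edgeR adjusted p was 0.081 and 0.116. Most reads, 162 and 89 in WT, fell in the last exon, which makes up 1844 bp of the annotated length. Beside it, at a distance of 74.5 kb, lies Nkx2-9, a relative of the same homeobox family, which had 117 and 44 reads in WT and 3 and 3 in Aire-KO (log2 fold change 4.72 ± 0.97, SE, edgeR adjusted p = 0.0454). This call too was lost without either WT library (edgeR adjusted p = 0.244 and 0.134).

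Genes of the Nkx2 family and of the lung, where Nkx2-1 drives surfactant genes, included 4 of 13 tested that were called higher in WT and 0 lower. This stood beside 6.22% and 0.253% of all genes, and the list's median log2 fold change was 1.82. With the experiment as a block, 8 of 13 were called higher and 1 lower, beside 17.5% and 9.51% of all genes. The lower one was Nkx2-6, at 12.6 and 18 CPM in WT and 29.7 and 41.3 in Aire-KO (block log2 fold change -1.22, edgeR adjusted p = 0.0013). Sftpb, a surfactant protein, had 490 and 477 reads in WT and 3 and 0 in Aire-KO (ratio 358, exact counting interval 122 to 1737, edgeR adjusted p = 0.023). Sftpc, another surfactant protein, had 415 and 533 reads against 13 and 5 (log2 fold change 5.88 ± 0.96, SE, edgeR adjusted p = 0.0289). Sftpd, a surfactant lectin, had 8616 and 11190 reads against 1269 and 2311 (2.83 ± 0.52, SE, edgeR adjusted p = 0.0366). Scgb3a2 was not matched to a RefSeq ID and was not analysed here.

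Slc5a5, the iodide transporter, went the other way. Slc5a5 (NM_053248, 2928 bp) is a minus-strand gene of chromosome 8 (mm9, 73406788 to 73416656) with 15 exons. It had 835 and 587 reads in WT and 1345 and 1973 in Aire-KO, or 3.81 and 4.92 CPM against 9.26 and 8.58 CPM. Both Aire-KO libraries were above both WT libraries, by 2.43-fold within the first and 1.74-fold within the replicate experiment. The log2 fold change (WT over Aire-KO) was -1.03 ± 0.40 (SE, 95% interval -2.0 to -0.06) and did not pass (edgeR adjusted p = 0.209), whereas with the experiment as a block it was -1.04 and passed (edgeR adjusted p = 0.0229). On library sizes alone it was -0.74, and that scaling moved the median of all genes by 0.29, so that relative to the other genes the value was alike. The difference was present along the transcript. In the coding exons before the last, WT had 0.667 and 0.895 RPKM and Aire-KO 1.77 and 1.80, and in the last exon WT had 2.43 and 3.06 and Aire-KO 5.48 and 4.93. The neighbour Ccdc124, at a distance of 9398 bp, was not called (log2 fold change 0.12 ± 0.50, SE, edgeR adjusted p = 0.944).

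Tg was decided by 1 library. Tg (NM_009375, 8436 bp) is a plus-strand gene of chromosome 15 (mm9, 66502315 to 66682283), with 48 exons in its longest annotated coding transcript. It had 1778 reads in the WT library of the first experiment and 14890 in that of the replicate experiment, against 1857 and 2371 in Aire-KO. In CPM these were 8.12 and 125 for WT and 12.8 and 10.3 for Aire-KO, so that 1 WT library lay below both Aire-KO libraries and the other far above them. The log2 fold change was 2.53 ± 1.10 (SE, 95% interval -0.12 to 5.18, edgeR adjusted p = 0.262) and did not pass. Within the first experiment, WT was 0.635 times Aire-KO, and within the replicate experiment 12.1 times. Without the WT library of the replicate experiment the log2 fold change was -0.49 (edgeR adjusted p = 0.932), and without that of the first it was 3.36 (edgeR adjusted p = 6.91e-06).

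The excess of Tg in that library was large among all genes. The ratio of the WT libraries, replicate over first experiment, was 15.4 for Tg, and 11 of 19772 genes (0.0556%, Tg included) had a ratio as high, while the median of all genes was 1.01. Of 10 follicular cell genes in the table, 7 were higher in the WT library of the replicate experiment and 3 lower. Iyd, which recovers iodide, had a ratio of 1.90, Duoxa2, a maturation factor of the hydrogen peroxide generator, 1.71, Slc5a5 1.29 and Tshr 0.468. The gene with the pattern nearest to Tg over the 4 libraries was Ttr, which carries thyroid hormone and retinol in blood, at 11.1 and 61.2 CPM in WT and 6.66 and 11.5 in Aire-KO (distance 1.43 in log2 CPM plus 0.5), followed by Ces2e, a carboxylesterase, at a distance of 1.49. The extra reads were weighted to the 3' end. Reads per bp of the last exon were 5.77 times those of the other coding exons in the WT library of the replicate experiment and 1.90, 2.35 and 3.05 times in the WT library of the first and the Aire-KO libraries of the first and replicate experiments. The median of this ratio over 428 genes with at least 5000 bp of such exons lay between 1.46 and 2.32 in the 4 libraries and was 1.72 in the WT library of the replicate experiment. Sla lies inside Tg on the opposite strand, and these libraries did not record strand. Annotated coding exons of Tg and Sla share 0 bp, and Sla had 836 and 598 reads in WT and 607 and 1041 in Aire-KO. The part of other cells in the Tg reads of this library was not tested.

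**Figure D3:**
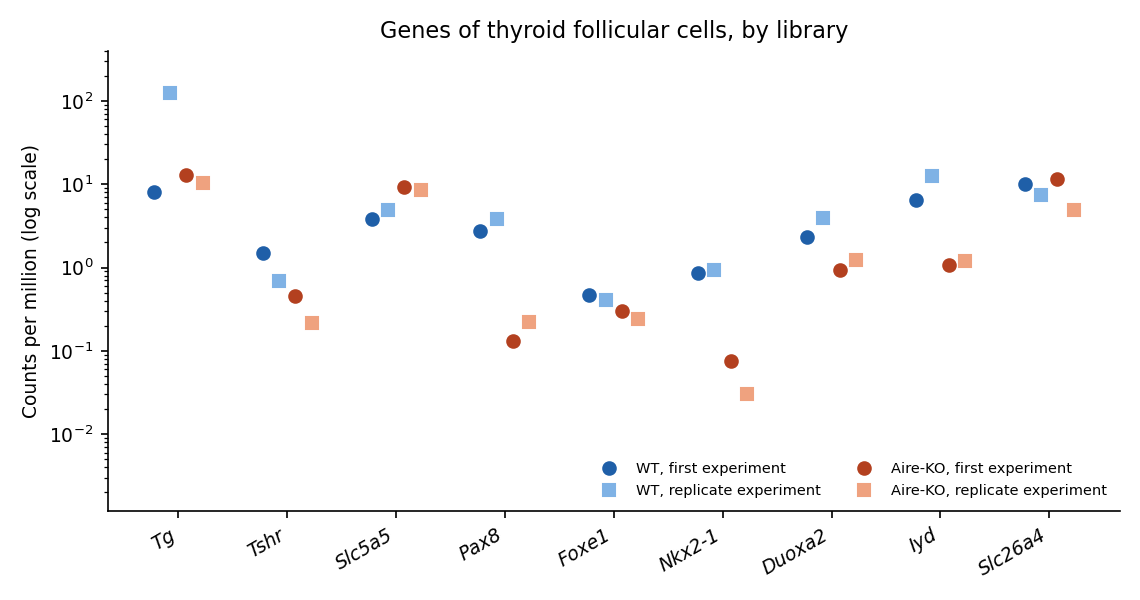
CPM (log axis) of 9 genes of thyroid follicular cells in the 4 libraries, with 1 point per library, colours for genotype and symbols for experiment. Tg stands apart in the WT library of the replicate experiment (125 CPM). Pax8, Nkx2-1, Iyd, Tshr, Duoxa2 and Foxe1 are higher in both WT libraries, and Slc5a5 is higher in both Aire-KO libraries. The share of all genes that separate likewise is not given.

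Tshr was low throughout and higher in WT by about 3 times. This plus-strand gene of chromosome 12 (mm9, 92639433 to 92778949) has 2 RefSeq IDs, NM_011648 (4312 bp, the receptor with its transmembrane last exon) and NM_001113404 (1346 bp, a shorter transcript that shares the first exons and ends elsewhere). NM_011648 had 326 and 83 reads in WT and 66 and 50 in Aire-KO, or 1.49 and 0.696 CPM against 0.454 and 0.217 CPM. Groups did not overlap, and WT exceeded Aire-KO 3.28-fold within the first and 3.20-fold within the replicate experiment, while the levels in both genotypes were lower in the replicate than in the first experiment. The log2 fold change was 1.71 ± 0.75 (SE, 95% interval -0.10 to 3.51, edgeR adjusted p = 0.266) and did not pass, nor did it with the experiment as a block (edgeR adjusted p = 0.0917). NM_001113404 had 56 and 32 reads in WT and 14 and 16 in Aire-KO (1.66 ± 0.85, SE, edgeR adjusted p = 0.355), but its first exons are those of NM_011648 and their reads were counted for both. In its own last exon, upstream part and d3’UTR together, it had 10 and 1 reads in WT and 11 and 8 in Aire-KO.

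Tshr was also the only one of the 6 genes with a d3’UTR, the stretch of the 3’UTR beyond a proximal polyadenylation site. The d3’UTR ratio divides the read density of the d3’UTR by that of the upstream part of the last exon, and falls when the proximal site is used more. For NM_011648, the d3’UTR of 631 bp had 7 and 6 reads in WT and 4 and 0 in Aire-KO, beside 261 and 42 and 53 and 32 reads in the upstream 2708 bp. The ratios were 0.115 (exact 95% interval of counting error 0.0458 to 0.241) and 0.613 (0.213 to 1.45) in WT, and 0.324 (0.0851 to 0.879) and 0 (up to 0.524) in Aire-KO. The libraries of one genotype thus differed more than the genotypes did, and with reads summed the ratio was 0.184 (0.0969 to 0.32) in WT and 0.202 (0.0538 to 0.536) in Aire-KO. For NM_001113404, summed ratios were 1.03 (0.248 to 6.05) in WT, on 8 and 3 reads, and 0.0456 (0.00511 to 0.192) in Aire-KO, on 2 and 17. The interaction of region and genotype gave an edgeR adjusted p of 1 for both IDs (log2 difference 0.43 ± 1.41 and 4.02 ± 2.88, SE). Over all d3’UTRs, 0 of 7842 (0%) were called in this edgeR test, and 146 had an unadjusted p under 0.05. That is a smaller share than the threshold alone would let through, so the test was conservative here. Its lack of calls does not show that usage was alike in both genotypes.

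Other genes of thyroid hormone synthesis were in part lost without Aire. Of 10 tested, 2 were called higher in WT and 0 lower, beside 6.22% and 0.253% of all genes. The list's median log2 fold change was 1.31. With the experiment as a block, 6 of 10 were called higher and 0 lower, beside 17.5% and 9.51% of all genes. Duox2 and Duoxa1 were not matched to a RefSeq ID and were not analysed here. Iyd had 1435 and 1485 reads in WT and 157 and 277 in Aire-KO (log2 fold change 3.05 ± 0.51, SE, edgeR adjusted p = 0.0307). Kcne2, a potassium channel subunit that supports iodide uptake, had 935 and 467 reads against 17 and 0, which did not pass (6.22 ± 1.45, SE, edgeR adjusted p = 0.0603) and passed with the block (edgeR adjusted p = 0.000315). Of the transcription factors that act with Nkx2-1 in the thyroid, Pax8 had 607 and 460 reads in WT and 19 and 51 in Aire-KO (4.22 ± 0.63, SE, edgeR adjusted p = 0.0239). Pax8 was the 1 of 4 called higher in WT, beside 6.22% of all genes. Foxe1 had 102 and 49 reads against 44 and 56 (0.68 ± 0.72, SE, edgeR adjusted p = 0.707), and Hhex had 234 and 196 against 72 and 149 (1.24 ± 0.60, SE, edgeR adjusted p = 0.317).

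Among the hormones that control the thyroid and the receptor for thyrotropin-releasing hormone, 2 of 6 genes tested were called higher in WT and 0 lower. This stood beside 6.22% and 0.253% of all genes. The list's median log2 fold change was 2.29, with 5 of 6 above 0. Trh, the hypothalamic thyrotropin-releasing hormone, had 1791 and 1358 reads in WT and 2 and 0 in Aire-KO, a ratio of 1747 with an exact counting interval from 483 to 14433 (edgeR adjusted p = 0.0176). Gpha2, the alpha subunit of thyrostimulin, had 397 and 616 reads against 54 and 78 (log2 fold change 3.29 ± 0.70, SE, edgeR adjusted p = 0.0487), a call that was lost without the WT library of the replicate experiment (2.36, edgeR adjusted p = 0.234). Cga, the common alpha subunit of thyrotropin and the gonadotropins, had 1327 and 1186 reads against 200 and 92 and stood just outside the threshold (3.18 ± 0.72, SE, edgeR adjusted p = 0.0563), inside it with the block (edgeR adjusted p = 0.00091). Of 10 genes for hormone transport and action, 1 was called higher and 0 lower, beside 6.22% and 0.253% of all genes (median log2 fold change of the list 0.64). This was Slco1c1, a thyroxine transporter of the blood-brain barrier, with 370 and 151 reads in WT and 0 in both Aire-KO libraries, at least 87.8-fold higher in WT against a floor of 3 counts per library. Dio3, which inactivates thyroid hormone, had 726 and 274 reads against 0 and 38 (5.01 ± 1.39, SE, edgeR adjusted p = 0.0897), and passed with the block (edgeR adjusted p = 0.00226). Over this list, the block called 3 of 10 higher in WT and 1 lower, beside 17.5% and 9.51% of all genes. The lower one was Thrb, a thyroid hormone receptor, at 21.6 and 9.56 CPM in WT and 46.7 and 17.3 in Aire-KO. Its block log2 fold change was -0.98 (edgeR adjusted p = 0.00563). Ttr (1.99 ± 0.79, SE, edgeR adjusted p = 0.218) did not pass, and passed with the block (edgeR adjusted p = 0.0047). Its log2 fold change was 0.28 without the WT library of the replicate experiment (edgeR adjusted p = 0.963) and 2.65 without that of the first (edgeR adjusted p = 0.000531).

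Calca was the most abundant of the 6 genes and was expressed without Aire at a level like that of WT. It is a minus-strand gene of chromosome 7 (mm9, 121774994 to 121779871), 1243 kb from Pth. The RefSeq ID NM_007587 (877 bp) had 10971 and 9678 reads in WT and 9751 and 9945 in Aire-KO, or 50.1 and 81.2 CPM against 67.1 and 43.3 CPM. Groups overlapped, and each genotype was the higher one in 1 experiment. The log2 fold change was 0.25 ± 0.43 (SE, edgeR adjusted p = 0.841), with a 95% interval from -0.79 to 1.29 that lies below the log2 fold changes of Pth and Nkx2-1. NM_001033954 (994 bp) had 6062 and 4564 reads in WT and 5666 and 5403 in Aire-KO (0.08 ± 0.41, SE, edgeR adjusted p = 0.955). Calcb, the paralog that encodes a second CGRP, lies 82.3 kb away and was more abundant, at 260 and 147 CPM in WT and 620 and 368 CPM in Aire-KO. Its log2 fold change of -1.28 ± 0.47 (SE) did not pass (edgeR adjusted p = 0.18), and with the experiment as a block it was called lower in WT (-1.29, edgeR adjusted p = 0.000858). Reads that match both paralogs could have been given to either, and how many there were is unknown here.

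The deposited parts separate the calcitonin and CGRP messages of Calca. Both RefSeq IDs share their 5'UTR and first coding exons, and they end in different exons. In the mm9 annotation, the transcript that ends in exon 4 (121776812 to 121777299, 488 bp) reads into the calcitonin peptide and the one that skips it for another exon 4 (121775930 to 121776113, 184 bp) and a last noncoding exon (610 bp in all) reads into CGRP, as found by translating the annotated coding sequence. These lengths match the last parts of NM_007587 (495 bp) and NM_001033954 (612 bp) to within a few bases. The annotated acceptor sites of the calcitonin exon and of the CGRP exon 4 are shown with 40 intron bases in lower case and 20 exon bases in capitals. They come from mm9, minus strand, at chr7:121777280-121777339 and chr7:121776094-121776153.
calcitonin acceptor: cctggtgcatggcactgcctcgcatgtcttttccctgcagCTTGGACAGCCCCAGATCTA
CGRP acceptor: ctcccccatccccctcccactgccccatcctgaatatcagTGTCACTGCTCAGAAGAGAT
Of the 20 intron bases before the exon, 14 were pyrimidines at the calcitonin acceptor and 12 at the CGRP acceptor, and of all 40 shown 26 and 30 were. The 30 bases around each polyadenylation hexamer, in capitals, come from chr7:121776810-121776839 and chr7:121775006-121775035 of mm9, minus strand, and lie at the 3' end that each message uses. The calcitonin exon carries AATAAA, 16 bases before its annotated end, and the CGRP message carries the variant ATTAAA, 30 bases before its end.
calcitonin hexamer: ggttgtttgggaAATAAAactattttttaa
CGRP hexamer: aatgtaatcaaaATTAAAaacaaatgtatt

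Calcitonin was the main message in mTEChi of both genotypes. Its exon had 7097 and 6351 reads in WT and 6327 and 6619 in Aire-KO, whereas the CGRP exons, though longer, had 2188 and 1237 in WT and 2242 and 2077 in Aire-KO. Per bp, the calcitonin share was 80.0% (exact 95% interval of counting error 79.3 to 80.8) and 86.4% (85.7 to 87.1) in WT, and 77.7% (76.9 to 78.6) and 79.8% (78.9 to 80.5) in Aire-KO. The WT libraries were thus at or above the Aire-KO libraries, with the WT library of the first experiment within the counting error of the Aire-KO library of the replicate experiment and the other WT library apart from all. Group means were 83.2% ± 4.53 in WT and 78.8% ± 1.48 in Aire-KO (SD, n = 2). Within each experiment the share was higher in WT, with counting intervals that did not overlap, while the WT libraries differed from each other by more than the group means did. Reads of Calcb that also match the CGRP exons could have entered this share, and how many there were is unknown here. The difference between genotypes was not tested by a model, and an exact two-sided permutation test of 2 libraries against 2 cannot go below p = 0.333. In CPM, the calcitonin exon was at 32.4 and 53.3 in WT and 43.5 and 28.8 in Aire-KO, and the CGRP exons at 9.99, 10.4, 15.4 and 9.03. Between the WT libraries, the calcitonin exon was thus higher in the replicate experiment in CPM, and the CGRP exons were at a similar level in CPM.

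**Figure D4:**
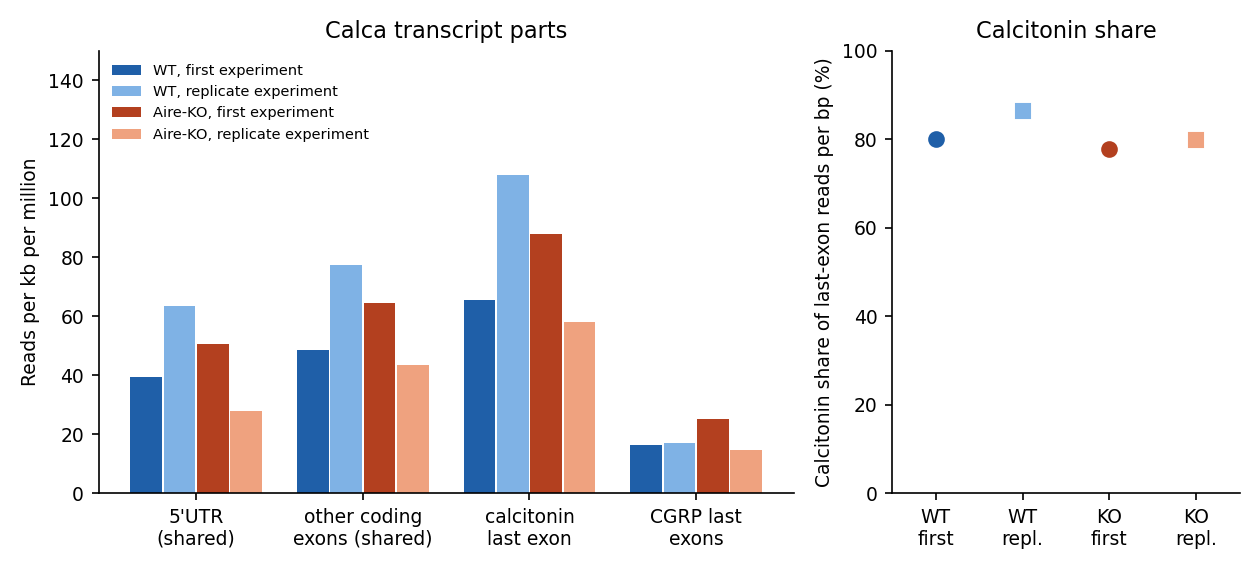
Left, reads, in RPKM, over the parts of Calca, where the 5'UTR and other coding exons are shared by both messages and the last exons belong to 1 each, with 1 bar per library. Right, the calcitonin share of last-exon reads per bp (%) with exact 95% intervals of counting error, which are smaller than the symbols, and it lies between 77.7% and 86.4% in the 4 libraries.

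The promoter sequences of Pth and Calca are shown because both genes lie on chromosome 7 and had the lowest and the highest level of the 6 in Aire-KO. Of the 6 genes, 4 had an entry in the RefSeq promoter table (GRCm38.p6), and Tg and Tshr had none. The 250 bases before the annotated start are given 5′ to 3′ on the gene's strand, with each CG dinucleotide in capitals, at chr7:113388574-113388823 (Pth) and chr7:114636358-114636607 (Calca), both minus strand.
Pth promoter: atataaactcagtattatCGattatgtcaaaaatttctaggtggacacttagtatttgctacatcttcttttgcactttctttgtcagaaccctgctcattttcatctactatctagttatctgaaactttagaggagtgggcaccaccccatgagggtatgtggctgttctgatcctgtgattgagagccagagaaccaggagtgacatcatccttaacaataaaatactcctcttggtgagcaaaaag
Calca promoter: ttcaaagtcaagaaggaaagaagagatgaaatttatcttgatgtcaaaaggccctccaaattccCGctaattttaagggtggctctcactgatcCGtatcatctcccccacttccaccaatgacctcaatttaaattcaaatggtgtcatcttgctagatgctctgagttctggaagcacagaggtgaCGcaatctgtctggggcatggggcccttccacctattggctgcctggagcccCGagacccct
Pth had 1 CG, and 18.8% of 32851 promoters had as few or fewer. Calca had 4 (44.4% with as few or fewer), Nkx2-1 9 (62.2%) and Slc5a5 21 (85.2%), against a median of 6. With both strands searched, TATAAA was found in Pth alone of the 4, where it begins 249 bases before the start, and 12.4% of promoters hold it. CTCAAG, a core recognised by Nkx2-1, was in 0 of the 4 and in 13.3% of promoters, and GGGCGG was in Slc5a5 and Nkx2-1 and in 32.7% of promoters. A match or its absence in these windows is a description of the letters only.

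Receptors and relatives of calcitonin were mixed. Of 9 tested, 2 were called higher in WT and 0 lower, beside 6.22% and 0.253% of all genes. The list's median log2 fold change was -0.43. With the experiment as a block, 3 were called higher and 3 lower, beside 17.5% and 9.51% of all genes. The lower ones were Calcb, described above, Calcrl and Adm2. Calcrl was at 94.8 and 25.1 CPM in WT and 304 and 51.9 in Aire-KO (block log2 fold change -1.36, edgeR adjusted p = 0.000827). Adm2 was at 17.2 and 18.8 CPM against 27.8 and 49.3 (-1.04, edgeR adjusted p = 0.00598). Calcr, the calcitonin receptor, had 2347 and 577 reads in WT and 110 and 58 in Aire-KO (log2 fold change 3.96 ± 0.76, SE, edgeR adjusted p = 0.0391). Iapp, the islet peptide amylin of the calcitonin family, had 9617 and 8916 reads against 862 and 735 (3.70 ± 0.52, SE, edgeR adjusted p = 0.0216). Ramp1, which turns the related receptor Calcrl into a CGRP receptor, had 537 and 662 reads against 108 and 279 (2.03 ± 0.62, SE, edgeR adjusted p = 0.114), and passed with the block (edgeR adjusted p = 0.00555).

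Of 12 neuroendocrine genes that C cells share with other endocrine cells, 2 were called higher in WT and 0 lower. This stood beside 6.22% and 0.253% of all genes, and the list's median log2 fold change was 0.60. Scg2, a granin of secretory granules, had 3316 and 1625 reads in WT and 375 and 361 in Aire-KO (2.79 ± 0.46, SE, edgeR adjusted p = 0.0289), and Pcsk2, a prohormone convertase, had 1040 and 993 against 101 and 242 (2.90 ± 0.55, SE, edgeR adjusted p = 0.038). The call of Pcsk2 was lost without the WT library of the replicate experiment (2.43, edgeR adjusted p = 0.0522). Chgb stood just outside the threshold (1.76 ± 0.39, SE, edgeR adjusted p = 0.055), and Chga (1.05 ± 0.38, SE, edgeR adjusted p = 0.18) did not pass. Both passed with the block (edgeR adjusted p = 0.000542 and 0.00535). In that fit, 6 of 12 were called higher in WT and 2 lower, beside 17.5% and 9.51% of all genes. The lower ones were Insm1 and Ret. Insm1 was at 171 and 132 CPM in WT and 392 and 313 in Aire-KO (block log2 fold change -1.22, edgeR adjusted p = 0.00107). Ret was at 18 and 15.3 CPM against 42.6 and 29.9 (-1.10, edgeR adjusted p = 0.00259).

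Over all 9 lists, which name 89 genes, 86 were in the table and tested, 19 were called higher in WT and 0 lower, beside 6.22% and 0.253% of all genes, and the median log2 fold change was 1.03 against 0.00. With the experiment as a block, 38 of 86 were called higher and 9 of 86 lower, beside 17.5% and 9.51% of all genes, so that the share called lower was near the background. The lists were chosen with results of these libraries known. With Slco1c1 at its lower bound, the median of its list was 0.64 as before.

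**Figure D5:**
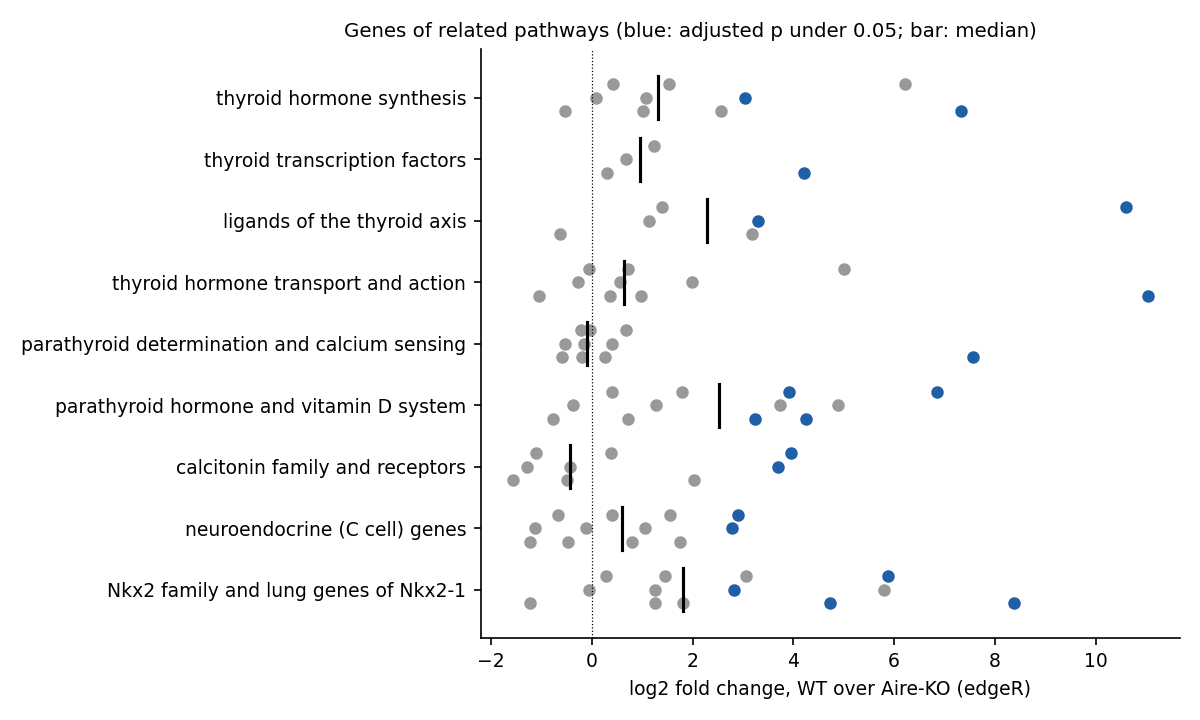
Log2 fold change of WT over Aire-KO (horizontal axis) for each tested gene of the 9 lists, with 1 point per gene, blue where the edgeR adjusted p was under 0.05, and a black bar at the list's median. Medians run from -0.43 for the calcitonin family to 2.52 for the parathyroid hormone and vitamin D system, and 19 genes were called, all higher in WT.

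The genes whose pattern over the 4 libraries was nearest to that of each member, by Euclidean distance in log2 CPM plus 0.5 over 19772 genes, differed from member to member. Nearest to Pth were Bpifb9a (1449 and 748 reads in WT, 2 and 0 in Aire-KO, distance 0.12) and Bpifb3 (1229 and 741, 5 and 3, distance 0.14). Nearest to Nkx2-1 were Trim58 (198 and 116 reads, 10 and 10, distance 0.06) and Pnma5 (188 and 104, 9 and 10, distance 0.09). Tshr was nearest to Smc1b and Omg (distances 0.14 and 0.15), Slc5a5 to Fam110b and Inka2 (0.21 and 0.33), and Calca to Metrnl and Mttp (0.30 and 0.36). The neighbours of Pth and Nkx2-1 were called higher in WT (edgeR adjusted p = 0.0176 for both neighbours of Pth, 0.0388 for Trim58 and 0.0403 for Pnma5), and those of Slc5a5, Tshr, Tg and Calca were not called. Because these genes were picked by likeness over the same 4 libraries, their calls follow from the choice and are no separate result. The nearest annotated feature on each side of Nkx2-1, a pseudogene and a snoRNA, had no value. Of the nearest genes on each side of the other members, those with a value were not called: Phf20l1 (log2 fold change -0.12) and Ccn4 (0.33) beside Tg, Cep128 (0.25) and Gtf2a1 (-0.81) beside Tshr, and Cyp2r1 (-1.35) beside Calca had edgeR adjusted p from 0.531 to 0.962.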

How the data were processed

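RNA-seq counts of 4 libraries of mTEChi (2 WT, 2 Aire-KO) were used. The authors reduced paired reads to 50 bp single-end reads, removed those of low quality (CASAVA) and aligned the rest to mm9 by Bowtie 1.0.0. Those contained wholly in a RefSeq exon were counted (bedtools). Deposited values are raw counts per RefSeq ID and per transcript part, with no normalization. Reads across a junction are lost, short parts most of all. RNA was polyA-selected and strand was not kept. RefSeq accessions gave symbols for 29352 of 30794 IDs (95.3%).

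The genotype test was edgeR 4.0.16 (TMM, filterByExpr, quasi-likelihood) on all IDs, and counts of genes took the ID with the highest mean CPM for each gene. DESeq2 1.42.0 served as an alternative, with other normalizations, no filter, 1 ID a gene, leaving out each library, and the experiment as a replicate block. The paper names a replicate experiment, which pairs the libraries, and deviations of WT and Aire-KO of one experiment correlated at 0.70 over 19772 genes. No source says that the pools were separate cultures or litters, so p-values measure the spread between these libraries. Libraries of a genotype differed beyond sampling noise. Usage of d3’UTRs was tested by edgeR's interaction of region and genotype on IDs with at least 10 reads in each part over the libraries. Intervals of single ratios are exact and cover counting error only. Genes were named by rule: the members, their nearest patterns and neighbours, of each list the 3 smallest p and each called gene, up to 6, and 9 genes fixed by name. Insm1, Ret, Nkx2-6, Thrb, Calcrl, Adm2, S100g and Pax9, called lower in WT with the block, were added outside the rule. The annotation was GENCODE for mm9, and promoters came from RefSeq (GRCm38.p6). Scripts used R 4.3.3, Python 3.11.15, pandas 2.3.3 and scipy 1.17.1 and were tested on simulated data. The members and lists were chosen with earlier results of these data known. Some genes that the rule names are not reported here, though counts and medians of their lists include them.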

Additional observations from a re-analysis of the deposited data

How the results depend on the processing

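Over all RefSeq IDs, 1564 were called, against 2525 on library sizes alone, 4093 by the DESeq2 Wald test and 7205 in the fit with a replicate block (experiment), and between 1590 and 3814 when 1 library was left out. Of the genes of the pathway lists 19 were called, against 47 with the replicate block and between 19 and 30 when 1 library was left out. These alternatives for lists and their named genes were chosen after seeing the data. Pth kept its call under every alternative run (log2 fold change 9.67 to 13.21). Nkx2-1 kept its direction (3.56 to 4.86) and lost its call without either WT library (edgeR adjusted p = 0.081 and 0.116). Slc5a5 kept its direction and was called with the replicate block alone (-1.04). Tg ranged from -0.49 to 3.36 over fits without 1 library, called in 3 of these 4, and was called by DESeq2 (2.51). Calca ranged from -0.11 to 0.60 (NM_007587; -0.04 without the Aire-KO library of the replicate experiment) and from -0.25 to 0.49 (NM_001033954; -0.15 without the WT library of the replicate experiment) over these fits and was called in none. Log2 d3’UTR usage of Tshr (NM_011648) ran from -0.68 to 3.63 without 1 library (0.43 with all), at -0.68 and -0.41 without the WT or the Aire-KO library of the replicate experiment. With 1 library left out, the lone library of its genotype is assumed to vary like the others. The cause of these changes was not tested. With 49 bp taken once off each part, no Calca share moved beyond its counting interval. The CGRP part spans 2 exons, and taking 49 bp off each of them was not run, so this setting does not fully correct that part. Counts were low for Tshr and its d3’UTR and for Nkx2-1 in Aire-KO, and each genotype had 2 libraries.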
